A study of Mus musculus with 6 samples.

Results

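The 58 genes described here carry out mitosis and chromosome segregation, out of 47643 genes in the deposited count table. They were taken by name, as genes of the spindle, kinetochore, checkpoint, condensin and cytokinesis machinery, and all 58 were among the 15111 genes tested. RNA was sequenced from mast cells sorted from mouse skin, in 3 embryonic and 3 adult libraries. The embryonic cells came from E16.5 skin, have yolk sac hemogenic endothelium as their origin according to the submitters, and were sorted as CD45+ F4/80- CD64- ckit+ ST2+. The adult cells, called definitive by the submitters, were sorted as CD45+ F4/80- CD64- ckit+ Fcer1+, and the labels give no age in weeks. Mice of both groups carried Cdh5CreERT2, a tamoxifen-inducible Cre driven by an endothelial gene, and were pulsed with 4OHT at E7.5. The labels do not say that cells were sorted on the lineage label. The groups thus differ at once in age, in the origin the submitters give, in the last marker of the gate and in an extra Dispase step that took off adult epidermis, and these cannot be told apart.

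At mitosis, cyclin B with Cdk1 drives entry, the chromosomes are compacted by condensin, and spindle microtubules attach to a kinetochore built on each centromere. The spindle checkpoint holds the cell until every kinetochore is attached. Cdc20 then turns on the anaphase-promoting complex, securin is degraded, separase cuts the cohesin between sister chromatids, and cytokinesis divides the cell. Most of these genes are transcribed late in the cell cycle in dividing cells and held down in resting cells, and tissue mast cells of adult skin are known to be long-lived cells that divide rarely. In sorted cells measured in bulk, fewer dividing cells and less RNA per dividing cell cannot be told apart.

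The libraries held 34122162 to 49813523 counts in genes, and members held 132 to 15813 counts in an embryonic and 20 to 5345 in an adult library. All 11 mast cell markers (Kit, Cpa3, Hdc, Cma1, Tpsb2, Mcpt4, Ms4a2, Fcer1a, Il1rl1, Gata2 and Mitf) were detected in both groups, and their levels added up to 124000 to 135000 CPM (counts scaled to a common library size) in the embryo, against 61900 to 64700 CPM in the adult. Of these, 6 were higher in the embryo (Cpa3, Hdc, Cma1, Tpsb2, Il1rl1 and Gata2), 3 were higher in the adult, and Kit and Mitf did not pass the test. Cpa3, Hdc and Cma1 made up most of the embryonic sum. The 3 higher in the adult were Fcer1a, at 4.39 to 7.32 CPM in the embryo (129.6-fold), Ms4a2 (7.46-fold) and Mcpt4 (6.90-fold). Fcer1a and Ms4a2 encode subunits of the IgE receptor used in the adult gate, and Il1rl1 encodes ST2 of the embryonic gate. Of 9 erythroid markers 7 could be tested and all 7 were higher in embryonic libraries, adding up to 161 to 353 CPM, against 12.7 to 19.0 CPM, and Hbb-y was at 0 counts in the adult. Keratinocyte markers summed to 64.2 to 631 CPM in the embryo, against 29.3 to 53.5 CPM in the adult (3 of 6 higher in embryonic), endothelial markers to 25.7 to 34.1 against 3.11 to 8.59 CPM (3 of 6), and progenitor markers to 348 to 407 against 508 to 654 CPM (2 of 6 tested higher in embryonic and 3 in adult, with Elane at 0 in both). Cd34 (4.19-fold) and Myb (1.48-fold) were the progenitor markers higher in the embryo, and Ctsg, Flt3 and Sox4 those higher in the adult. Ctsg, at 45.4 to 60.8 CPM in the embryo against 294.6 to 451.6 CPM in the adult, had the largest difference in CPM among them. Macrophage markers summed to 3.78 to 8.51 against 72.8 to 181 CPM (6 of 7 tested higher in adult), lymphocyte and ILC2 markers to 18.7 to 26.6 against 113 to 121 CPM (3 of 4 tested higher in adult, with Il5 at 0 in the embryo), and basophil markers to 540 to 609 against 1460 to 1660 CPM (2 of 4 higher in adult and 1 in embryonic). The basophil marker higher in the embryo was Mcpt8 (3.7-fold), and those higher in the adult were Itga2b (13.6-fold) and Itga2 (2.71-fold). Lyz2 made up most of the adult macrophage sum, and Il7r most of the adult lymphocyte and ILC2 sum. Melanocyte markers summed to 32.6 to 52.7 against 4.05 to 15.9 CPM (2 of 5 higher in embryonic), and fibroblast markers to 552 to 683 against 91.4 to 504 CPM (1 of 6 higher in adult). The part of these cells in the results below was not tested. Among embryonic libraries, replicate 3 held the lowest summed level of the 58 mitosis genes. It also held the highest sums of mast cell, erythroid, keratinocyte, fibroblast, endothelial, macrophage, and lymphocyte and ILC2 markers. Basophil and melanocyte sums were highest in replicate 2 and the progenitor sum in replicate 1.

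Of the 58 mitosis genes, 57 were higher in embryonic mast cells and 1, Pttg1, which encodes securin, was higher in adult mast cells. Adjusted p-values from edgeR's quasi-likelihood test were at most 0.0042. Of all 15111 genes tested, 31.2% were called higher in embryonic and 31.7% higher in adult libraries (63% in either direction). The median log2 fold change of the members was 2.91, or 7.52-fold toward the embryo, beside -0.02 over all genes tested. Rises of at least 4-fold were called for 49 members (7.61% of all genes) and of at least 8-fold for 25 (3.88% of all genes). Summed over the members, the level was 4436, 4233 and 3854 CPM in embryonic replicates 1 to 3, against 885, 723 and 830 CPM in adult replicates 1 to 3. The sums did not overlap, and the lowest embryonic sum was 4.35 times the highest adult sum. For single genes, the groups were apart for all 58, with the embryo above for 57 (34.5% of all genes tested) and the adult above for 1 (35.5% of all genes tested). The members took 0.395% to 0.458% of embryonic counts and 0.0706% to 0.0884% of adult counts. They lie on 17 chromosomes. Nothing in the labels ties a replicate to its own animal or litter. P-values here therefore cover the spread between these libraries alone, which may be technical.

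**Figure D1:**
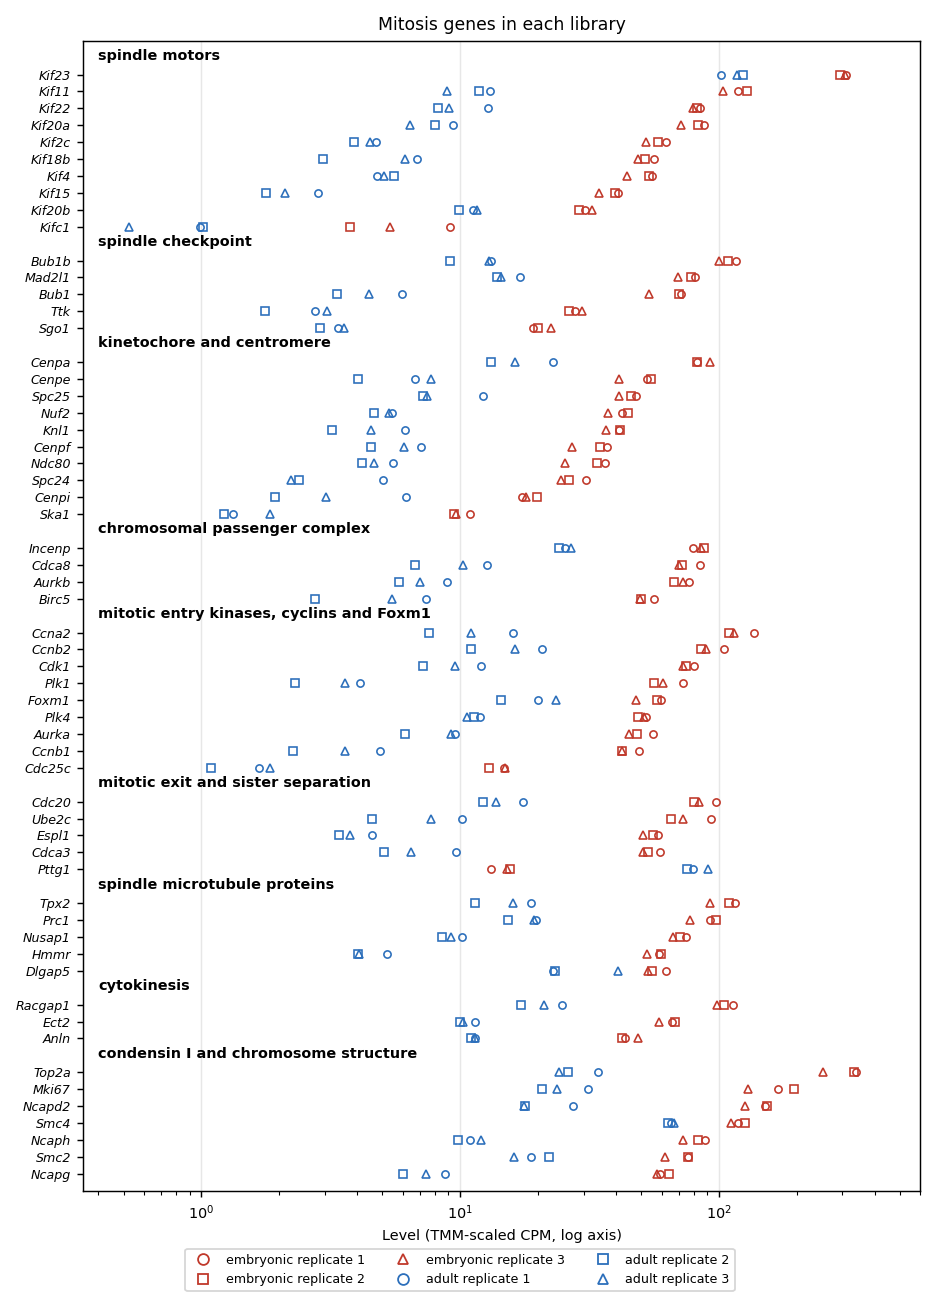
Level of each of the 58 mitosis genes (rows, grouped by role) in each library (TMM-scaled CPM, log axis), with embryonic libraries in red, adult libraries in blue and replicates 1 to 3 as circles, squares and triangles. In 57 rows every red symbol lies to the right of every blue one, and in the row of Pttg1, at 13.1 to 15.6 CPM in the embryo, against 74.96 to 90.8 CPM in the adult, the order is turned.

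The promoters of the members are shown as a description, and their part in the shared direction of the members was not tested. Late cell cycle promoters are known for a CHR (cell cycle genes homology region) element close to the transcription start, bound by the DREAM and B-MYB complexes through their MuvB core, and for CCAAT boxes, bound by NF-Y. RefSeq windows on GRCm38.p6, from 250 bases before to 50 bases after the start, were found for 47 of the 58 members, 1 per gene. The CHR letters TTTGAA, searched on both strands, were in 35 of these 47 windows (74.5%), against 18.1% of 27025 windows of all genes. CCAAT, on both strands, was in 34 (72.3%, against 37.9%), at least 2 copies of it in 22 (46.8%, against 12.2%), and both motifs in 29 (61.7%, against 7.12%). E2F letters (TTCGCGC or TTGGCGC or TTCCCGC or TTGCCGC, both strands) were in 10 (21.3%, against 9.69%). A reversed CCAAT followed by CGC also holds an E2F motif, and each was then counted. Of 45 CHR matches in member windows, 34 began between 40 bases before and 50 bases after the start, and 24 began after it. In the 250 bases before the start alone, 15 of 47 members held the CHR letters (31.9%, against 16.3%).

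The 120 bases before the RefSeq start are printed 5′ to 3′ for 7 members, with CHR and CCAAT matches of either strand in capitals (TTCAAA and ATTGG are the reversed forms). Kif11, Cdk1, Cdc20, Top2a and Espl1 hold both motifs, Bub1 holds CCAAT alone, and Nusap1 holds neither.
Kif11 (chr19:37376262-37376381, plus strand): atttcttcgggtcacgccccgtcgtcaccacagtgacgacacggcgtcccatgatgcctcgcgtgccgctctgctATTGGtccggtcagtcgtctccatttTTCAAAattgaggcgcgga
Cdk1 (chr10:69352913-69353032, minus strand): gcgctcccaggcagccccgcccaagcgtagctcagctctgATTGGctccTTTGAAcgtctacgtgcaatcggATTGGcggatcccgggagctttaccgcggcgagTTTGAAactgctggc
Cdc20 (chr4:118437344-118437463, minus strand): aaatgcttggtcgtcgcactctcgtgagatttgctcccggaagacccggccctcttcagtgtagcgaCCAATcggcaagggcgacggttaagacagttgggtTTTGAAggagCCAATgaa
Top2a (chr11:99024190-99024309, minus strand): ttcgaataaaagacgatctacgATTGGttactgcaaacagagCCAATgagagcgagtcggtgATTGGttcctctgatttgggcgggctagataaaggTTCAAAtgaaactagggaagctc
Espl1 (chr15:102296173-102296292, plus strand): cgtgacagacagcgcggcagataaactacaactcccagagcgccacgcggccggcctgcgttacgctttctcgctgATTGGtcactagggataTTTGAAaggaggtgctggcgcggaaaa
Bub1 (chr2:127831860-127831979, minus strand): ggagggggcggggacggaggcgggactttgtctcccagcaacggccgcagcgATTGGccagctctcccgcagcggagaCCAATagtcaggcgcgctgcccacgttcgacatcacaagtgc
Nusap1 (chr2:119618178-119618297, plus strand): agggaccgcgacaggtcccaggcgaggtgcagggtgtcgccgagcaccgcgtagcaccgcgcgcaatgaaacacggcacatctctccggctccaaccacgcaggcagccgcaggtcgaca
In Kif11, the CHR match began 19 bases and the CCAAT match 45 bases before the start. In Espl1 these distances were 27 and 44 bases, and in Top2a the CHR match lay 23 bases before the start with CCAAT matches at 58, 78 and 98 bases. The motif classes of the members had like median log2 fold changes. The median was 2.94 in the 29 with both motifs and 2.92 in the 6 with the CHR letters alone. It was 3.01 in the 5 with CCAAT alone and 2.90 in the 7 with neither. The class with neither counts the window of Pttg1, and its values ran from -2.49 (Pttg1) to 3.32. A match is a run of letters and not a measured binding site. The RefSeq start lay within 50 bases of the 5′ end of the gene in the deposited table for 36 of 47 members. For Pttg1 it lay 270 bases inside, at an internal start, so that window, which held neither motif, is not printed. Among 10951 tested genes outside the members with a window, 33.0% were higher in embryonic and 32.1% in adult libraries. Among the 515 of them with both motifs, 40% and 24.7% were. Only the members were left out of this set, so it can still hold other cell cycle genes.

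The spindle motors, which slide and depolymerise microtubules, were all 10 higher in the embryo, and their median log2 fold change was 3.30. Kif15, a motor that helps keep the spindle bipolar (ENSMUSG00000036768.5, chromosome 9, 122951081 to 123018725 in GRCm38), was at 40.6, 39.7 and 34.3 CPM in embryonic replicates 1 to 3, against 2.82, 1.78 and 2.11 CPM in adult replicates 1 to 3. The 3 adult values lay far below the 3 embryonic values, a 17.0-fold difference (log2 fold change 4.09 ± 0.19 SE, adjusted p = 1.1e-07). Kif2c, which depolymerises microtubules at centromeres, was at 62.4, 58.2 and 52.1 CPM against 4.73, 3.88 and 4.47 CPM and 13.2-fold higher in embryonic cells. Kif23, the motor subunit of centralspindlin in the midzone and midbody (ENSMUSG00000032254.9, chromosome 9, 61917280 to 61946799), was at 309, 293 and 307 CPM in the embryo, against 102, 123 and 118 CPM in the adult. Its groups did not overlap either, but the fold was 2.65 (log2 fold change 1.41 ± 0.10 SE, adjusted p = 2.0e-06), the smallest among the motors. Kif20b, a cytokinesis motor, was 2.79-fold higher, and Kif4, Kif18b, Kif11, Kif20a and Kif22 were 8.14-fold to 10.4-fold higher. For Kif20a and Kif4, 33.2% and 15.1% of the exon bases are shared with the genes Cdc23 and Pdzd11, and reads there were not counted. Kifc1, a minus-end motor, was the least abundant member and varied most between embryonic libraries, at 9.13, 3.74 and 5.34 CPM against 0.986, 1.02 and 0.526 CPM.

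The spindle checkpoint genes were all 5 higher in embryonic cells. Bub1, a checkpoint kinase whose window is printed above (ENSMUSG00000027379.13, chromosome 2, 127801122 to 127831865), was at 71.5, 69.8 and 53.6 CPM in the embryo, against 5.95, 3.35 and 4.42 CPM in the adult. Adult replicate 1 was the highest adult library but lay far below the lowest embryonic one, and the fitted difference was 14.2-fold (log2 fold change 3.82 ± 0.22 SE, adjusted p = 8.4e-07). Ttk, the kinase that starts checkpoint signalling, was 11.1-fold and Bub1b, part of the inhibitor of Cdc20, 9.22-fold higher. Mad2l1, which encodes MAD2, another part of that inhibitor, was at 80.5, 77.7 and 69.3 CPM against 17.1, 13.8 and 14.3 CPM, 5.03-fold higher, and Sgo1, which shields centromeric cohesin, 6.30-fold higher. Per exon length, Bub1b stood at 2.74 to 2.84 times Mad2l1 in the embryo, and 1.3 to 1.77 times in adult libraries, without overlap.

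All 10 kinetochore and centromere genes were at least 4-fold higher in embryonic cells, with log2 fold changes between 2.30 and 3.10. Cenpa, the histone variant that marks centromeres (ENSMUSG00000029177.9, chromosome 5, 30666777 to 30674830), was at 82.4, 82.5 and 92.3 CPM in the embryo, against 22.8, 13.1 and 16.3 CPM in the adult, 4.92-fold higher (adjusted p = 7.3e-06). Every embryonic value was more than 3 times the highest adult value. Knl1, the scaffold that recruits the checkpoint, was 8.59-fold higher, and of the NDC80 complex, which grips microtubules, Spc24 was 8.40-fold, Nuf2 8.04-fold, Ndc80 6.65-fold and Spc25 4.99-fold higher. The motor protein gene Cenpe was 8.05-fold, Ska1 of the SKA complex 6.83-fold and Cenpf, a large kinetochore protein, 5.56-fold higher. Cenpi, of the inner kinetochore, was at 17.3, 19.8 and 17.9 CPM against 6.18, 1.92 and 3.03 CPM. Adult replicate 1 was the high library there: the fold was 4.92 with it and 7.41 without it, and the call was lost without embryonic replicate 3 and adult replicate 3 together (adjusted p = 0.054).

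The chromosomal passenger complex, which corrects wrong attachments and guides cytokinesis, was higher in embryonic cells in all 4 subunits, by unequal folds. Its kinase Aurkb (ENSMUSG00000020897.12, chromosome 11, 69045647 to 69051664) was at 76.4, 66.7 and 72.8 CPM against 8.89, 5.82 and 7.0 CPM, 9.93-fold higher. Birc5, which encodes survivin, was at 56.1, 50.1 and 49.7 CPM against 7.40, 2.75 and 5.45 CPM, 9.96-fold higher, and Cdca8, which encodes borealin, was 7.65-fold higher. Incenp, the scaffold of the complex, was at 79.4, 87.7 and 85.1 CPM against 25.5, 24.0 and 26.7 CPM, 3.31-fold higher (log2 fold change 1.73 ± 0.10 SE, adjusted p = 4.1e-07). Incenp thus had the smallest fold of the 4 subunits. Per exon length, Incenp stood at 1.5 to 1.85 times Birc5 in the embryo, and 3.64 to 9.24 times in adult libraries. The ratios between members given here were chosen after the values were seen and carry no test. Their size also depends on the annotated exon lengths.

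The group of mitotic kinases, cyclins, Cdc25c and Foxm1 was higher in embryonic cells in all 9 genes, and Plk1 had the largest fold of the 58 members. Plk1, polo-like kinase 1 (ENSMUSG00000030867.7, chromosome 7, 122159439 to 122169873), was at 72.5, 56.0 and 60.9 CPM in the embryo, against 4.10, 2.31 and 3.58 CPM in the adult. The groups lay far apart, and the fitted difference was 18.9-fold (log2 fold change 4.24 ± 0.22 SE, adjusted p = 3.0e-07). Ccnb1, cyclin B1 (chromosome 13, 100778650 to 100786570), was at 49.0, 42.2 and 42.3 CPM against 4.91, 2.26 and 3.58 CPM, 12.4-fold higher. Cdk1, its kinase, was at 80.1, 74.3 and 72.8 CPM against 12.0, 7.18 and 9.55 CPM, 7.89-fold higher. Ccnb2 was 5.82-fold, Ccna2, cyclin A2, 10.4-fold, Cdc25c, the phosphatase that activates Cdk1, 9.25-fold and Aurka, the centrosomal Aurora kinase, 6.0-fold higher. Plk4, which starts centriole duplication, was 4.49-fold higher. Foxm1, a transcription factor of late cell cycle genes (chromosome 6, 128362967 to 128376146), was at 59.9, 57.5 and 47.7 CPM against 20.0, 14.4 and 23.4 CPM, and its 2.85-fold difference was the smallest in this role (log2 fold change 1.51 ± 0.18 SE, adjusted p = 6.1e-05).

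**Figure D2:**
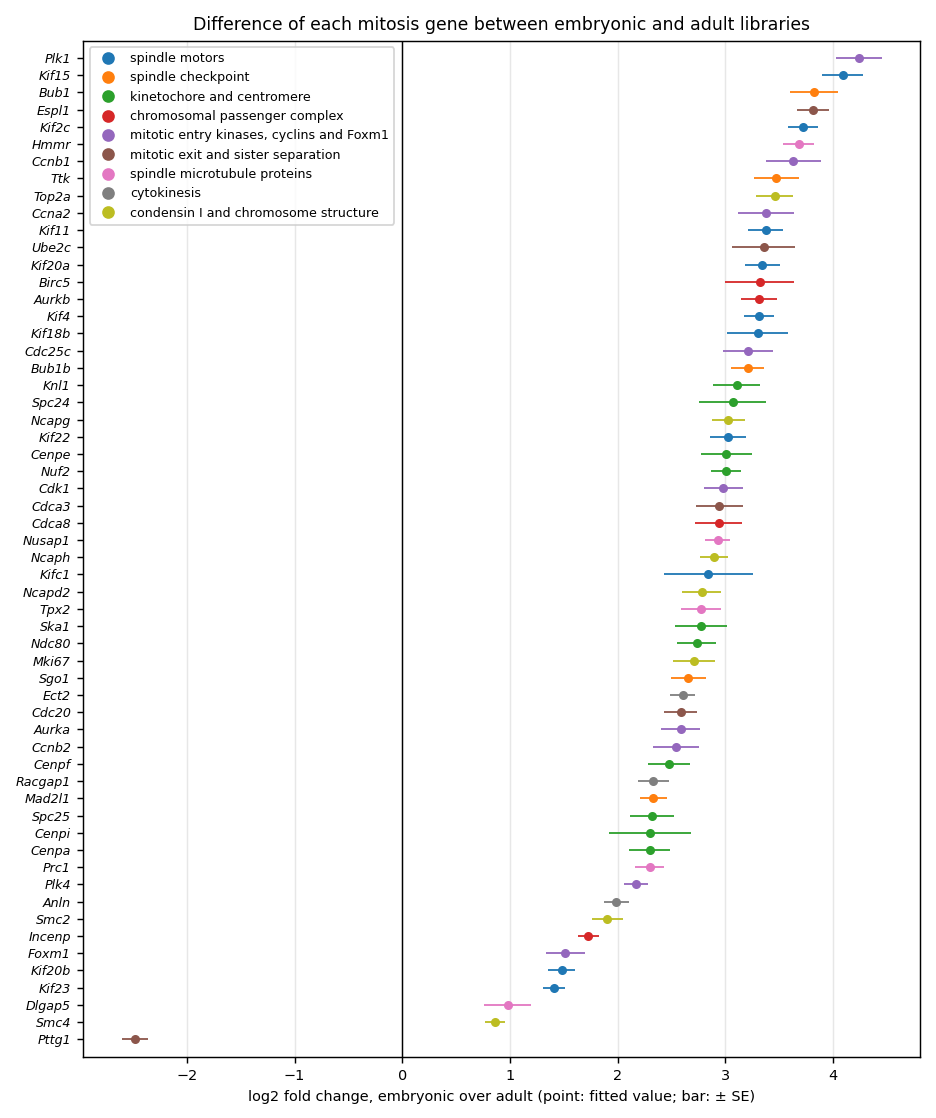
Fitted log2 fold change of each mitosis gene (positive: higher in embryonic libraries), with bars for the SE and colours for the role. Plk1 is at the top at 4.24, 57 genes lie to the right of 0, and Pttg1 lies at -2.49.

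Securin and separase, which bind each other, went in opposite directions. Pttg1, securin, the inhibitor and chaperone of separase (ENSMUSG00000020415.16, chromosome 11, 43420250 to 43426251), was at 13.1, 15.6 and 15.1 CPM in the embryo, against 79.5, 74.96 and 90.8 CPM in the adult. All 3 adult libraries lay far above all 3 embryonic ones, a 5.6-fold difference toward the adult (log2 fold change -2.49 ± 0.12 SE, adjusted p = 1.4e-07), and the direction and call held with RLE and upper quartile scaling. Espl1, separase, the protease that opens cohesin (ENSMUSG00000058290.3, chromosome 15, 102296293 to 102324356), was at 58.1, 55.8 and 50.9 CPM against 4.55, 3.39 and 3.76 CPM, 14.0-fold higher in embryonic cells (log2 fold change 3.81 ± 0.15 SE, adjusted p = 3.6e-08). Per exon length, Pttg1 stood at 0.749, 0.926 and 0.985 times Espl1 in the embryo, and at 57.9, 73.2 and 80.0 times in adult libraries. Per exon length, Pttg1 was thus near Espl1 in the embryo and far above it in the adult. Pttg1 went from position 48 of the 58 members per length in the embryo to the highest in the adult, at 40.9 CPM per kb. No exon base of Pttg1 is shared with another gene of the table. The other genes grouped here with securin and separase were higher in embryonic cells. Cdc20, the activator of the anaphase-promoting complex, was at 97.3, 80.3 and 83.5 CPM against 17.5, 12.2 and 13.7 CPM (6.01-fold). Ube2c, a ubiquitin-conjugating enzyme of that complex, was 10.3-fold and Cdca3 7.69-fold higher. For Ube2c, 22.8% of exon bases are shared with Tnnc2.

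Of the spindle microtubule proteins all 5 were higher in embryonic cells, from 1.97-fold to 12.8-fold. Hmmr, a microtubule-binding protein of spindle poles, was at 58.6, 59.8 and 52.5 CPM against 5.21, 4.04 and 4.05 CPM, the 12.8-fold case. Nusap1, whose printed window holds neither motif, was 7.61-fold, Tpx2, which activates Aurka, 6.83-fold and Prc1, which bundles midzone microtubules, 4.91-fold higher. Dlgap5, which stabilises kinetochore fibres (chromosome 14, 47387779 to 47418407), was at 62.5, 54.9 and 53.1 CPM against 22.8, 23.3 and 40.7 CPM. Its groups did not overlap, but adult replicate 3 came near the embryonic values, and the fold was 1.97 (log2 fold change 0.98 ± 0.22 SE, adjusted p = 0.0042). The gene Lgals3, galectin-3, on the opposite strand, ends 1618 bases from the 3′ end of Dlgap5, and counting did not use strand. Lgals3 was at 73.4 to 102 CPM in embryonic and 2211, 1698 and 2571 CPM in adult replicates 1 to 3, and its part in the counts of Dlgap5 was not tested. The cytokinesis genes Ect2, an activator of RhoA, Racgap1, the partner of Kif23 in centralspindlin, and Anln, anillin of the contractile ring, were 6.08-fold, 5.03-fold and 3.96-fold higher in embryonic cells. Per exon length, Kif23 stood at 5.62 to 6.45 times Racgap1 in the embryo, and 8.50 to 14.9 times in adult libraries.

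Condensin and chromosome structure genes were all 7 higher in embryonic cells, with the largest folds in Top2a and the smallest in Smc4. Top2a, topoisomerase II alpha, which untangles sister DNA (ENSMUSG00000020914.17, chromosome 11, 98992943 to 99024189), was at 340, 333 and 253 CPM against 34.1, 26.1 and 24.2 CPM, 10.97-fold higher (adjusted p = 2.3e-07). Mki67, which encodes the proliferation marker Ki-67 and coats mitotic chromosomes (chromosome 7, 135689788 to 135716379), was at 170, 195 and 130 CPM against 31.2, 20.7 and 23.7 CPM, 6.53-fold higher. In both genes embryonic replicate 3 was the lowest embryonic library and still lay far above the adult ones. Of the condensin I subunits, Ncapg was 8.15-fold, Ncaph 7.44-fold and Ncapd2 6.86-fold higher. The ATPases Smc2 and Smc4, which condensins I and II share, were 3.74-fold and 1.82-fold higher. Smc4 (ENSMUSG00000034349.14, chromosome 3, 69004738 to 69034623) was at 119, 126 and 112 CPM against 65.2, 63.4 and 66.7 CPM, with little spread in either group (log2 fold change 0.87 ± 0.09 SE, adjusted p = 2.4e-05). Per exon length, Smc2 stood at 0.525 to 0.610 times Smc4 in the embryo, and 0.230 to 0.330 times in adult libraries.

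Levels of different genes were compared per kb of exon. The length covers all annotated exons of a gene and may differ from that of the transcripts made in these cells. The positions of genes therefore depend on the annotation. Kif23 was the most abundant member in embryonic cells, at 88.5 CPM per kb, followed by Ccnb2 at 60.4, Cdc20 at 46.6 and Top2a at 34.3 CPM per kb. In adult cells Pttg1 at 40.9 and Kif23 at 33.4 CPM per kb were followed by Smc4 at 12.5, Ccnb2 at 10.4 and Incenp at 7.90 CPM per kb. Plk1 went from position 7 in the embryo to position 39 in the adult, and Dlgap5 from position 41 to position 7. Kifc1 was last in both, at 1.78 and 0.247 CPM per kb. Across the 58 genes, which are not independent replicates, the log2 level per kb in the embryo correlated with that in the adult (Pearson r = 0.709, Spearman rho = 0.700). The embryonic level hardly went with the size of the fold (r = 0.086, rho = 0.133).

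**Figure D3:**
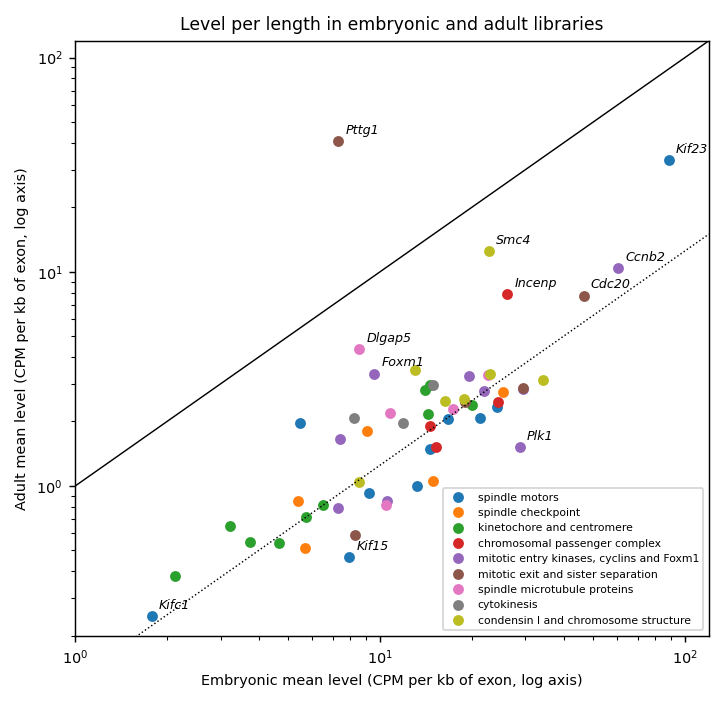
Mean level per kb of exon in embryonic (x axis) and adult (y axis) libraries for each mitosis gene, on log axes, coloured by role, with a solid line at equal levels and a dotted line at an 8-fold lower adult level. Pttg1, at 7.30 and 40.9 CPM per kb, is the 1 gene above the solid line, and Smc4 and Dlgap5 lie closest below it.

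The mitosis genes varied more between adult than between embryonic libraries. The median coefficient of variation over the 58 members was 8.80% in embryonic and 21.7% in adult libraries, while 10560 tested genes within the members' range of adult levels had medians of 12.8% and 12.2%. Adult replicate 1 was the highest adult library for 41 of 58 members (70.7%, against 31.7% of all genes tested), and adult replicate 2 the lowest for 47 (81.0%, against 31.7%). The median ratio of adult replicate 1 to the mean of the other adult libraries was 1.28 over the members and 0.985 over all genes tested, and for adult replicate 2 it was 0.749 and 0.995. The members with the highest ratios in adult replicate 1 were Cenpi (2.50), Spc24 (2.19) and Birc5 (1.81), and Smc4, Anln and Incenp hardly moved between adult libraries. In the embryo, replicate 1 was the highest for 38 members (65.5%, against 32.5% of all genes tested) and replicate 3 the lowest for 38 (65.5%, against 34.2%). All members share each library's handling, so these counts describe the libraries. Marker sums of other cells also differed between adult libraries: in replicates 1 to 3, macrophage markers were at 157, 181 and 72.8 CPM, progenitor markers at 519, 654 and 508 CPM, basophil markers at 1580, 1460 and 1660 CPM, fibroblast markers at 504, 443 and 91.4 CPM and erythroid markers at 19.0, 14.1 and 12.7 CPM. Lymphocyte and ILC2 markers were at 121, 116 and 113 CPM and keratinocyte markers at 53.5, 50.5 and 29.3 CPM. Endothelial markers were at 8.59, 6.35 and 3.11 CPM and melanocyte markers at 14.9, 15.9 and 4.05 CPM. Mast cell markers were at 63700, 61900 and 64700 CPM. Adult replicate 2 was thus the highest for macrophage, progenitor and melanocyte markers and the lowest for basophil and mast cell markers. The progenitor markers did not all follow their sum. Ctsg, at 319.5, 451.6 and 294.6 CPM in adult replicates 1 to 3, Flt3 and Sox4 were highest in replicate 2. Cd34 was lowest there, at 19.3, 13.1 and 19.3 CPM, and Myb was highest in replicate 3. Adult replicate 1 was the highest for lymphocyte and ILC2, keratinocyte, endothelial, fibroblast and erythroid markers. The part of these cells in the order of the adult libraries was not tested. Without adult replicate 1 the median log2 fold change of the members was 3.00, and without adult replicate 2 it was 2.76.

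**Figure D4:**
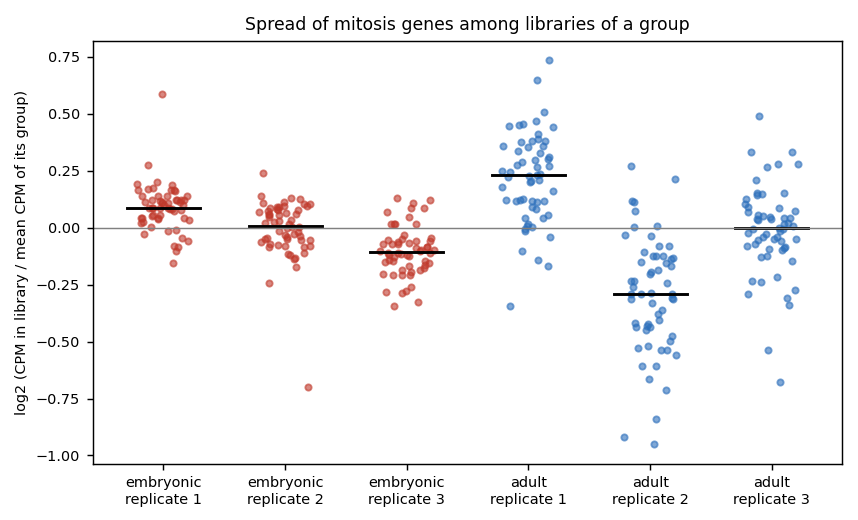
Each point is 1 mitosis gene in 1 library, as the log2 ratio of its CPM to the mean of that group's 3 libraries, with black lines at the median over genes. Points of adult replicate 1 lie mostly above 0 and points of adult replicate 2 mostly below, while the embryonic libraries, in red, differ less.

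Other genes of the pathway went in both directions. Of 155 further genes in 9 lists, all tested, 96 rose toward the embryo and 29 toward the adult and 30 did not pass the test, with a median log2 fold change of 0.69. These are shares of 61.9% and 18.7%, beside 31.2% and 31.7% of all genes tested, and no difference between lists was tested. Of 19 other centromere and inner kinetochore genes 14 rose toward the embryo and 3 toward the adult, with Cenpn, which reads Cenpa nucleosomes, 4.44-fold higher in the embryo, and Cenpb, which binds centromeric repeats, and Mis18a, a factor for loading Cenpa, 1.6-fold and 1.36-fold higher in the adult. Of 17 other outer kinetochore and checkpoint genes 14 and 2 were, with Ska3 6.55-fold and Zwilch 4.34-fold higher in the embryo, and Bod1 2.83-fold and Mad2l1bp, which helps silence the checkpoint, 2.21-fold higher in the adult. Kntc1, named here after its values were seen, had the largest log2 fold change of the 155, at 4.29.

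Cohesin and condensin II genes had a median log2 fold change of 0.36, with 9 of 16 higher in the embryo and 2 in the adult. In that list Cdca5, which encodes sororin, and Esco2, the cohesin acetyltransferase of S phase, were 8.89-fold and 7.49-fold higher in the embryo, while Nipbl, the cohesin loader, and Esco1 were 1.33-fold and 1.28-fold higher in the adult. Of 17 anaphase-promoting complex genes 11 rose toward the embryo and 3 toward the adult (median 0.51), with Fbxo5, its inhibitor, 7.25-fold and its subunit Cdc16 2.86-fold higher in the embryo, and Anapc15 1.98-fold and Ube2s 1.44-fold higher in the adult. Of 23 other spindle motors and microtubule proteins 12 and 4 were, with Spag5, astrin, 7.59-fold and Ckap2l 4.92-fold higher in the embryo, and Fam83d 2.92-fold and Tacc1 1.54-fold in the adult. Of 15 centrosome and centriole genes 8 and 2 were, with Stil, a centriole assembly factor, 14.4-fold and the kinase Nek2 7.04-fold higher in the embryo, and Nedd1, which targets gamma-tubulin, 1.61-fold and Cep152 1.48-fold in the adult. The 13 other cytokinesis genes had a median of -0.02, with 6 higher in the embryo and 4 in the adult, and the share toward the adult, 30.8%, lay near that of all genes. Cep55 and Cit, which act at the midbody, were 6.41-fold and 5.75-fold higher in the embryo, and Rock2 and Vps4a, of actomyosin and ESCRT machinery used throughout the cell cycle, 1.85-fold and 1.5-fold in the adult. The small counts rest on single libraries: those toward the adult fell to 1 in the anaphase-promoting complex list without embryonic replicate 2 or 3, in the cohesin list without embryonic replicate 2 or adult replicate 2, and in the centrosome list without embryonic replicate 1 or 2 or adult replicate 3, and that of cytokinesis genes toward the embryo fell to 3 without embryonic replicate 1, adult replicate 1 or adult replicate 2.

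Regulators above these machines went both ways. Of 16 other mitotic entry and exit regulators 10 rose toward the embryo and 5 toward the adult (62.5% and 31.2%, the latter near the share of all genes), with Cdc25a, a Cdk phosphatase, 6.63-fold and Ccnf, cyclin F, 6.47-fold higher in the embryo, and Cdc14b, a phosphatase, 3.41-fold and Ensa, a phosphatase inhibitor at mitotic entry, 1.53-fold in the adult. Of 19 E2F, pocket protein, MuvB and B-MYB genes, whose products are known to act at cell cycle promoters, 12 rose toward the embryo and 4 toward the adult. Binding of these products to the promoters printed above was not measured. E2f8 and E2f2 were 6.12-fold and 5.47-fold higher in the embryo. E2f5 had a mean of 2.69 ± 0.41 CPM in the embryo against 12.1 ± 0.32 CPM in the adult (SD, n = 3), 4.52-fold higher in the adult (edgeR adjusted p = 6.8e-06). Rb1, the retinoblastoma protein, was 1.67-fold higher in the adult, at 91.4 ± 8.76 against 54.6 ± 2.85 CPM.

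**Figure D5:**
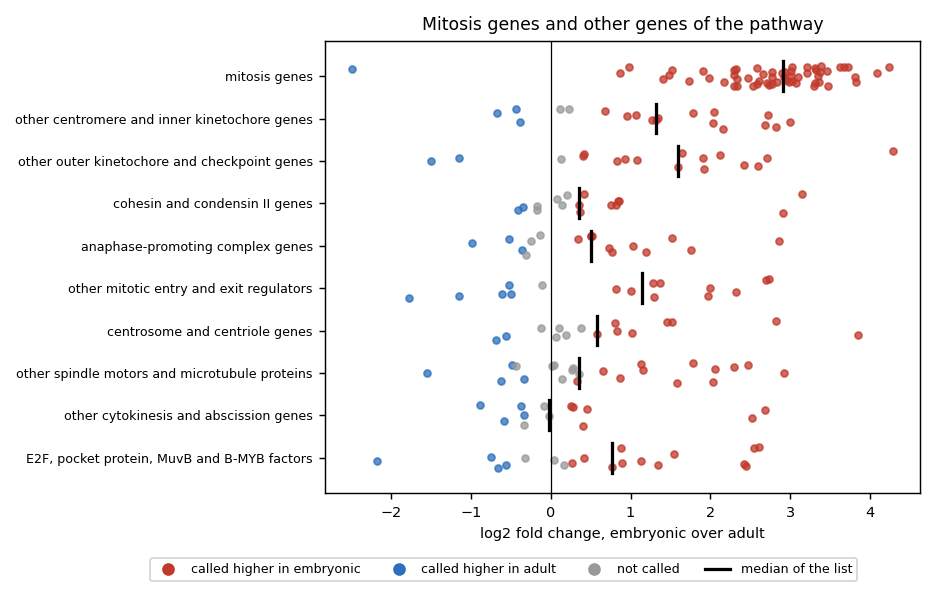
Log2 fold change (positive: higher in embryonic libraries) of the 58 mitosis genes and of the 155 other pathway genes in 9 lists, with points in red for genes called higher in embryonic, blue for adult and grey for neither, and black lines at list medians. The median of the mitosis genes is 2.91, and those of the other lists lie between -0.02 and 1.6.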

How the data were processed

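Counts of reads per gene, as deposited, were made with featureCounts 1.5.0-p1 over exons of GENCODE M9 on GRCm38, without strand and with reads marked as duplicates ignored, per the file headers; STAR and edgeR are named, per the submitters' processing notes, without versions. Per the labels' protocols, cDNA was made from 10 ng of RNA with 10 PCR cycles, and tagmented libraries had 12 cycles. The command in the header sets no option to count reads placed at several sites or over several genes, which were then left out. Amplified reads without molecular identifiers are not independent molecules.

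Symbols were matched by gene ID to GENCODE M21 for 47224 of 47643 genes. Counts were tested with edgeR 4.0.16 (TMM, default filterByExpr, robust glmQLFit and glmQLFTest, Benjamini-Hochberg over 15111 genes, threshold 0.05), embryonic against adult, in R 4.3.3. SE is the log2 fold change divided by the square root of F. CPM uses TMM-scaled library sizes and is divided by the deposited exon length to compare genes. The test was also run on simulated counts with the same dispersion for all genes and few changed genes. Far more genes were called in the data, so that run checks the code and not the calls. Each library counted as 1 replicate, as the labels list it. No libraries of a group held identical counts or agreed within sampling noise, which does not show that they are separate animals. Alternatives were RLE and upper quartile scaling, other filters, DESeq2 1.42.0, limma-voom (limma 3.58.1), no robust estimation, a replicate block, a threshold of 0.01 and leaving out libraries. The members and gene lists were chosen with earlier results of these data known. Named were all members and, in each other list, up to 2 genes per direction with the smallest adjusted p. One such gene is not reported here. The other sample columns numbered 0.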

Additional observations from a re-analysis of the deposited data

How the results depend on the processing

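The count of members higher in embryonic cells was 57 and of members higher in adult cells 1 under both other scalings, both other filters, DESeq2, limma-voom, edgeR without robust estimation, a threshold of 0.01 and each left-out library. Without embryonic replicate 3 and adult replicate 3 together they were 56 and 1, and the member lost was Cenpi. No member, no pathway gene named by the rule, and not Kntc1 changed direction under these alternatives, and Ube2s, Cep152 and Esco1 lost their calls with some libraries left out (adjusted p = 0.053 to 0.10). The other pathway counts were 88 to 98 higher in embryonic and 21 to 28 in adult cells over single left-out libraries. With the replicate number as a block the member counts were 57 and 1 and the other pathway counts 95 and 26, beside 96 and 29. Nothing in the labels pairs same-numbered libraries, and their deviations from the group mean correlated at -0.12, -0.08 and -0.13. With deviations centred within 3 libraries per group, these values cannot show whether the numbers pair libraries. The window choice moved the promoters with CHR letters from 35 to 15 and those with both motifs from 29 to 13, because 24 of 45 CHR matches begin after the start. The lowest adult levels, such as Kifc1 at 20 to 49 counts, limit the precision of their folds, and 3 libraries per group limit all of them.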
